A study of Mus musculus with 18 samples.

Results

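Protocadherins and classical cadherins are calcium-dependent adhesion molecules of the cell surface. Their members were chosen by symbol, as every gene of the count tables named Pcdh or Cdh followed by a number or cluster letter, leaving out Cdh5, the cadherin of blood vessels. Of 23420 symbols counted, 93 met this rule and 83 reached a mean of 20 or more counts per mouse. These 83 comprised 11 genes of the protocadherin alpha cluster, 21 of the beta cluster, 22 of the gamma cluster, 11 non-clustered protocadherins and 18 cadherins. All 83 also passed the filter on low counts used in the fit, so that none was left untested.

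The retinas came from wild-type Balb/cJ mice, an albino strain that carries a light-sensitive variant of RPE65, aged 8 to 10 weeks. Naïve mice received no light, and no injection is described for them. Vehicle-treated and TD139-treated mice were dark-adapted for 16 h, exposed to white light of 15000 lux for 1 h and analysed on day 4. TD139 is a small-molecule inhibitor of the sugar-binding protein galectin-3 and was injected daily into the peritoneum at 15 mg/kg, in DMSO, beginning on the day before light exposure, and vehicle-treated mice received DMSO alone. Each group held 3 mice, each sequenced in 2 runs that were summed. As no injection is described for naïve mice, light and injection cannot be told apart in the comparisons with them. No unexposed mice received TD139.

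In classical cadherins, pairs of like molecules on facing membranes bind each other, and the inner tail ties the contact to the actin skeleton through catenins. Clustered protocadherins work differently: each neuron reads out its own combination of variable first exons, spliced to constant exons in the alpha and gamma clusters, and the mixture serves as a surface label by which a neuron tells its own branches from those of others. In the retina the gamma cluster is known for the self-avoidance and survival of amacrine cells. Non-clustered protocadherins are separate genes used in wiring and in sensory cells, and Pcdh15 and Cdh23 form the tip links of inner ear hair cells.

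The sequence upstream of the start site is shown for Pcdh7, Pcdh9, Pcdh10 and Pcdh17, non-clustered protocadherins with long transcripts. In the tests given further on, they were higher after TD139 than after vehicle or in naïve mice. So was Pcdh19, and Pcdh15 was higher than after vehicle, and the upstream entries of these genes are not printed. The 250 bases before the annotated start are printed in the direction of transcription, from RefSeq on GRCm38.p6, with capitals marking the letters CCAAT or their reverse complement ATTGG.
Pcdh7 (chr5:57717831-57718080, plus strand): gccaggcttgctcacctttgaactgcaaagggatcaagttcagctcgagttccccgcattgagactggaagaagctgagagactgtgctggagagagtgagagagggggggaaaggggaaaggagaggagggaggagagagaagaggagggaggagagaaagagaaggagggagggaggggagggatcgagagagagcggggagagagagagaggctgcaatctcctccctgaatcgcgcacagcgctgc
Pcdh9 (chr14:93890670-93890919, minus strand): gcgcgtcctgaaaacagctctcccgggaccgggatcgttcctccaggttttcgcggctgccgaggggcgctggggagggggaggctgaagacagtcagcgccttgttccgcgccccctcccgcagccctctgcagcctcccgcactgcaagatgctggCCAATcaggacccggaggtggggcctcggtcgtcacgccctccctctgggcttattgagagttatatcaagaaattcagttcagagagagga
Pcdh10 (chr3:45378148-45378397, plus strand): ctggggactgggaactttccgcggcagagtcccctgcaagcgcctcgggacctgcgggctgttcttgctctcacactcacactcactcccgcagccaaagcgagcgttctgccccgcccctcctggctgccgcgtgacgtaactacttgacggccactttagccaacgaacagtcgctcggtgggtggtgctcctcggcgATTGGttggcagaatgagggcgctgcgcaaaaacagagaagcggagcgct
Pcdh17 (chr14:84443313-84443562, plus strand): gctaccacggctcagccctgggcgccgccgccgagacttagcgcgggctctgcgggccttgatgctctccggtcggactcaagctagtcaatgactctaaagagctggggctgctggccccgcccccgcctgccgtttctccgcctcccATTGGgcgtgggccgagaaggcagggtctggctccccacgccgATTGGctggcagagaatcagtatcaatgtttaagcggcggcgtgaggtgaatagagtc
Upstream sequence was available for 20 of the 83 members, in 23 entries because Cdh7 and Pcdh9 have several starts. CCAAT or ATTGG occurred in 14 of the 23 entries, against 33.8% of 32851 mouse promoters searched over the same length. The letters TATAAA or TTTATA occurred in 2 of the 23, in Pcdh8 and Pcdh15, against 12.4% of all. The windows of Pcdh10, Pcdh17 and Pcdh9 held 22, 21 and 18 CpG dinucleotides and that of Pcdh7 held 7, where the median promoter held 6. A match of letters is a description of the sequence and does not show that a factor binds there.

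Libraries held 26171887 to 30201517 reads on genes per mouse. Of each library the members took 673.7, 918.3 and 1046 of every 1000000 reads for naïve mice, 1066, 936 and 938.7 for the vehicle group and 1221, 1229 and 1246 for the TD139 group. Naïve mouse 1 was thus the lowest of the 9. The share of reads falling outside annotated genes ran from 19.1 to 19.9% without light, from 16.5 to 19.4% after vehicle and from 21.3 to 22.8% after TD139, and its part in the results was not tested.

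Vehicle mouse 2 stood apart from the other 8 retinas in genes of neighbouring tissues. Cryaa, a lens crystallin, was at 5506 CPM (counts per 1000000 reads, scaled by TMM) there and at most at 208 elsewhere. Krt12, a keratin of the cornea, was at 94.1 CPM against at most 1.29, and Myh4, a myosin of fast muscle, was at 185 CPM against 0. Without that mouse, 19 members rather than 28 were higher after TD139 than after vehicle, where the share over all genes fell from 17.2 to 12.5%. The 9 that were lost were Pcdh9, Pcdh11x, Pcdh15, Pcdh19, Cdh4, Cdh6, Cdh12, Pcdhb18 and Pcdhga9, with log2 differences from 0.34 to 1.27 and adjusted p from 0.082 to 0.14 in that fit.

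Retinal markers were present in all groups. The 10 rod markers had sums of 76193 to 86072 CPM without light, 43763 to 61365 after vehicle and 62670 to 78976 after TD139, with 7 of 10 lower after light and vehicle and 6 of 10 higher after TD139 than after vehicle. The 9 markers of Müller glia summed to 4956 to 5717, 7555 to 8065 and 5245 to 6918 CPM in the same order. Of these, 6 were higher after light and vehicle and 3 lower after TD139 than after vehicle. The 10 markers of microglia and macrophages summed to 37.2 to 42.4, 208 to 423 and 26.5 to 124 CPM, with 5 higher after light and vehicle and 8 lower after TD139 than after vehicle. Over all genes, 4.91% were higher and 2.89% lower after light and vehicle, and 17.2% higher and 16.2% lower after TD139 than after vehicle. Markers of T and B cells stayed at or below 0.148 CPM in sum, and of 4 red cell genes listed the 2 found in the count tables had no reads. In whole retina, fewer cells of a type and less RNA per cell cannot be told apart, and the part of these shifts in the members' values was not tested.

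Transcript levels within the family were compared per kilobase of exon that no other member shares, as CPM per kb averaged over the 9 mice. The exons of all annotated transcripts of a gene were merged, so the order of members depends on how many transcripts are annotated. For Pcdh15 the divisor was 23773 bases, where its longest transcript has 9104, and for Cdh2 it was 8066 against 4843. Cdh2, or N-cadherin, the main adhesion molecule of neural tissue, was the highest member at 11.9 CPM per kb (range 7.46 to 13.9 over the mice). Pcdhgc3, a gamma gene of the C type, followed at 9.76 (4.59 to 14.5), with the cadherins Cdh24 at 9.58 (7.88 to 11.5) and Cdh22 at 8.66 (6.71 to 12.4), and these ranges overlapped throughout. The order also changed with the group, as Pcdhgc3 came first in TD139-treated mice (12.99 against 12.71 for Cdh2) and lay below Cdh24 and Cdh22 in naïve mice, at 8.17 against 8.71 and 8.66, and in vehicle-treated mice, at 8.13 against 9.79 and 10.16. In the beta cluster Pcdhb9 was at 6.78 CPM per kb, Pcdhb20 at 6.57 and Pcdhb17 at 4.16, and in naïve mice alone Pcdhb20 was the higher, at 6.83 against 6.14 for Pcdhb9. In the gamma cluster Pcdhga4 and Pcdhgc4 came after Pcdhgc3, at 5.75 and 4.40. The level of Pcdhga4 is uncertain, because its model shares 3157 exon bases with other members, where the gamma median was 2119, and keeps only 1570 of its own. Among non-clustered protocadherins Pcdh15 was at 6.52, Pcdh8 at 6.22 and Pcdh9 at 4.71, and in vehicle-treated mice alone Pcdh8 lay above Pcdh15, at 5.68 against 4.56. The alpha cluster was lowest, led by Pcdhac2 at 2.45, with Pcdha12 at 0.826 and Pcdhac1 at 0.724, a pair whose order was the reverse in naïve mice (0.585 and 0.654). The level of Pcdha11 is uncertain because its gene model also holds the exon of Pcdha10, which has no length here.

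Reads on the constant exons of the alpha and gamma clusters fall on several genes at once, so the counts of these genes rest mostly on the variable first exon, with a median of 2479 own exon bases in the alpha and 2629.5 in the gamma cluster. Beta genes shared no annotated exon bases with each other, except that Pcdhb21 and Pcdhb22 overlap over 455 bases, where a read could belong to either. The coding parts of neighbouring genes are alike, and reads that fit several of them could be divided or lost in counting, so single clustered genes are more uncertain than the clusters. The setting used for strand in counting is not given in the sources used here.

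Setting the vehicle group against the naïve group asked what light damage did to these genes. Only 1 of 83 members was called higher, at an adjusted p below 0.05 over 15196 genes, and 0 were called lower, against 4.91% and 2.89% of all genes. At an unadjusted p below 0.05, 7 members were higher and 4 lower, that is 8.43% and 4.82%, against 14.4% and 13.2% of all genes. DESeq2 called 2 higher and 0 lower, where 15.9% of all genes were called in either direction, and limma called 4 higher and 2 lower, where 21.9% of all genes were. The median log2 fold change of the members was 0.04, with -0.21 for the alpha cluster, 0.18 for beta, -0.16 for gamma, 0.16 for non-clustered protocadherins and 0.22 for cadherins, against 0.00 over all genes. In 9 members every vehicle-treated mouse lay above every naïve mouse (10.8%, against 16.7% of all genes). In 4 every one lay below, against 2525 of the 15196 genes. Without naïve mouse 1 the members' median became -0.09, and no member was called without any 1 of naïve mice 1 to 3, vehicle mice 1 and 3 or TD139 mice 2 and 3, fits in which 0.00647 to 4.30% of all genes were higher.

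The called gene was Cdh3, P-cadherin, which is known from epithelia including the pigment epithelium. Naïve mice had 1.77, 2.03 and 0.806 CPM, whereas 3.54, 4.45 and 2.99 were counted after vehicle and 2.26, 1.70 and 1.78 after TD139. All vehicle-treated mice lay above all others. The log2 fold change of vehicle over naïve was 1.25 (SE 0.34, adjusted p = 0.047), and without vehicle mouse 2, the highest, it was 1.09 with an adjusted p of 0.10. The 8 markers of the pigment epithelium had sums of 99.0 to 192 CPM without light, 183 to 355 after vehicle and 97.1 to 146 after TD139, and their part in the Cdh3 values was not tested. Cdh13, T-cadherin, which is held to the membrane by a lipid anchor, was at 3.15, 7.16 and 5.79 CPM in naïve mice and at 13.0, 7.98 and 12.5 after light and vehicle. Its log2 difference of 1.06 (SE 0.30) missed the threshold at an adjusted p of 0.052, and became 1.25 with an adjusted p of 0.039 without vehicle mouse 2. Without naïve mouse 1, the lowest of its group, it was 0.80 with an adjusted p of 0.097. Cdh23 was at 1.61, 2.11 and 3.48 CPM in naïve and 4.18, 3.50 and 4.23 in vehicle-treated mice (adjusted p = 0.15).

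Cdh1, E-cadherin of epithelia, shows what vehicle mouse 2 contributed. It was at 24.5 CPM in that mouse and between 0.603 and 1.46 CPM in the other 8. Its log2 difference of vehicle over naïve was 2.95 (SE 1.33, adjusted p = 0.20), and without that mouse it was -0.22.

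Setting the TD139 group against the vehicle group asked what the drug did after the same light exposure. Here 28 of 83 members were higher and 1 was lower, which is 33.7% higher against 17.2% of all genes, while 16.2% of all genes were lower. The 28 were 9 of 22 gamma genes, 5 of 11 alpha genes, 3 of 21 beta genes, 7 of 11 non-clustered protocadherins and 4 of 18 cadherins. The median log2 fold change was 0.52 over the members and -0.02 over all genes. By group it was 0.95 for alpha, 0.80 for gamma, 0.52 for non-clustered protocadherins, 0.24 for beta and 0.06 for cadherins. In 50 members every TD139-treated mouse lay above every vehicle-treated mouse, against 26.0% of all genes, and in 4 every one lay below, against 25.4%. The count of higher members depended on which mice entered, and the share over all genes moved with it. It was 11 without vehicle mouse 3 (against 8.07% of all genes), 9 without TD139 mouse 2 (against 5.61%) and 10 without TD139 mouse 3 (against 6.80%).

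**Figure D1:**
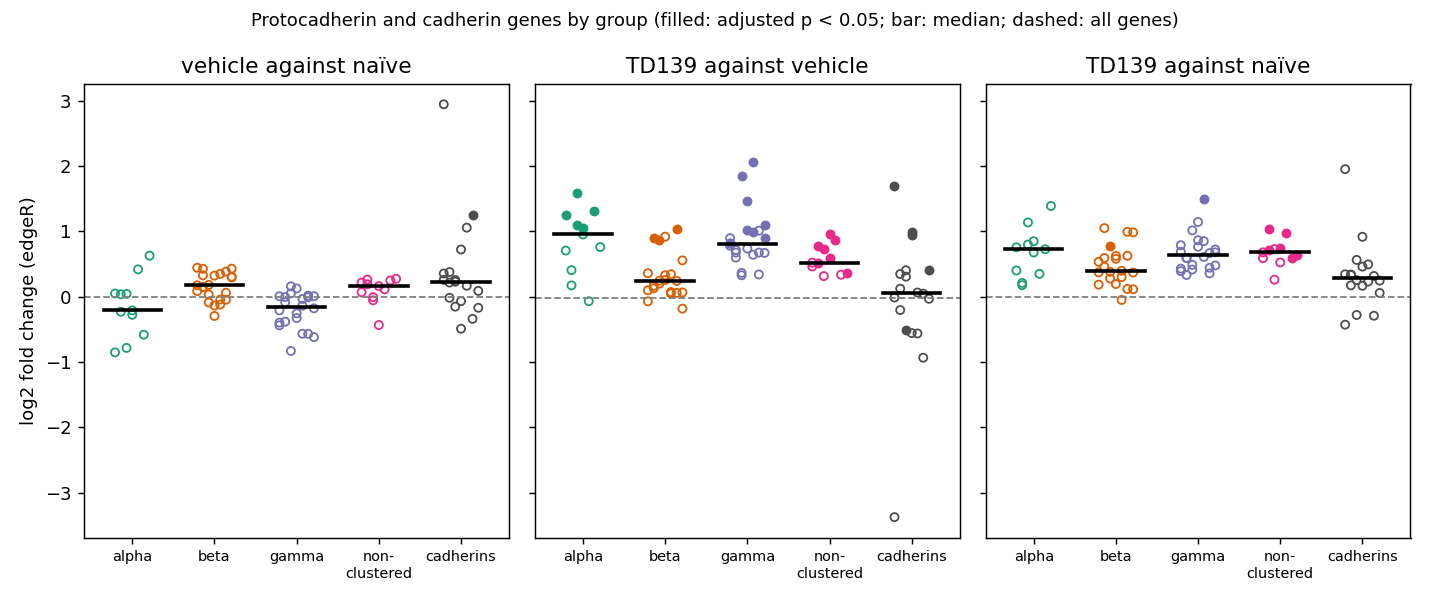
Log2 fold change of each of the 83 members (points) by group, in the 3 comparisons; filled points have an adjusted p below 0.05 in edgeR, bars are group medians and the dashed line is the median of all genes. Alpha, gamma and non-clustered genes lie mostly above the line when TD139-treated mice are set against vehicle-treated or naïve mice, with medians of 0.95, 0.80 and 0.52 against vehicle. The cadherins scatter around it against vehicle, with a median of 0.06, and 15 of 18 lie above 0 against naïve mice, with a median of 0.29.

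All 22 measured gamma genes had a positive log2 difference between TD139 and vehicle, from 0.33 to 2.06, and 9 passed the test. The whole cluster summed to 121, 104 and 86.2 CPM in vehicle-treated mice, 163, 187 and 203 in TD139-treated mice and 76.8, 120 and 151 in naïve mice. The vehicle-treated and TD139-treated mice did not overlap, while the naïve mice spanned a range from below the lowest vehicle-treated mouse to just below the lowest TD139-treated mouse. Pcdhgb8 (chr18:37761801-37841870) had the highest positive difference of all members. It was at 1.61, 1.38 and 0.941 CPM after vehicle and at 3.52, 6.19 and 6.68 after TD139, a 4.17-fold difference (log2 2.06, SE 0.36, adjusted p = 0.0057), and at 1.23, 2.68 and 1.91 in naïve mice. Its neighbour Pcdhga11 was at 1.68, 1.24 and 1.08 CPM after vehicle and at 3.67, 5.36 and 5.33 after TD139 (log2 1.84, SE 0.35, adjusted p = 0.0061). Pcdhga12, next in line, was at 6.58, 4.98 and 3.19 after vehicle and 7.93, 15.9 and 17.0 after TD139 (log2 1.47, SE 0.39, adjusted p = 0.018). In these 3 genes TD139 mouse 1 was the lowest of its group.

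The gamma cluster ends in its C-type genes, which neurons express more evenly than the other variable exons. Pcdhgc4, whose product is known as the isoform needed for neuronal survival, was at 12.5, 10.1 and 11.9 CPM after vehicle and 19.0, 20.8 and 24.5 after TD139 (log2 0.90, SE 0.20, adjusted p = 0.0098). Pcdhgc3, the most abundant, was at 35.7, 26.0 and 20.7 CPM after vehicle and 40.7, 41.9 and 49.1 after TD139. These groups did not overlap, but the difference of 0.68 did not pass (adjusted p = 0.11). The remaining called gamma genes were Pcdhga1, Pcdhgb2, Pcdhga5, Pcdhga9 and Pcdhgb7, with log2 fold changes from 0.83 to 1.10.

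In the alpha cluster 10 of 11 genes were above 0 and the cluster summed to 16.5, 15.0 and 13.0 CPM after vehicle, 25.9, 28.9 and 31.5 after TD139 and 11.5, 17.5 and 21.9 in naïve mice. All TD139-treated mice lay above all other mice. The C-type gene Pcdhac2 (chr18:37143503-37187657), the isoform of serotonergic neurons in the brain, was at 6.47, 5.02 and 4.27 CPM after vehicle and 10.3, 11.97 and 10.6 after TD139 (log2 1.06, SE 0.24, adjusted p = 0.010). Pcdhac1 was at 1.18, 1.20 and 0.538 CPM after vehicle and 1.93, 3.69 and 3.12 after TD139 (log2 1.58, SE 0.40, adjusted p = 0.015). Pcdha5 (log2 1.31, adjusted p = 0.045), Pcdha10 (1.25, adjusted p = 0.018) and Pcdha12 (1.09, adjusted p = 0.019) were also higher, at 0.437 to 3.79 CPM in the vehicle-treated and TD139-treated mice. Pcdha3 was the exception, at -0.07 (adjusted p = 0.92).

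The beta cluster behaved less evenly. It summed to 196, 176 and 164 CPM after vehicle and 202, 205 and 211 after TD139, 1.15-fold by the group means, against 1.94-fold for alpha and 1.78-fold for gamma. Only Pcdhb18, Pcdhb19 and Pcdhb21, close together at the far end of the cluster, were called, at log2 fold changes of 0.90, 0.87 and 1.04. Pcdhb19 (chr18:37496991-37504128) was at 5.83, 4.10 and 4.54 CPM after vehicle and 8.56, 9.39 and 8.50 after TD139 (SE 0.20, adjusted p = 0.011). Pcdhb20, between them and higher in level, was at 22.0, 24.3 and 20.7 after vehicle and 23.0, 22.0 and 25.5 after TD139 (log2 0.07, adjusted p = 0.69). Pcdhb9, another of the most abundant beta genes, was at 23.2, 22.2 and 23.7 CPM after vehicle and 21.7, 18.9 and 20.3 after TD139 (log2 -0.18, adjusted p = 0.29). The difference between clusters was not tested.

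**Figure D2:**
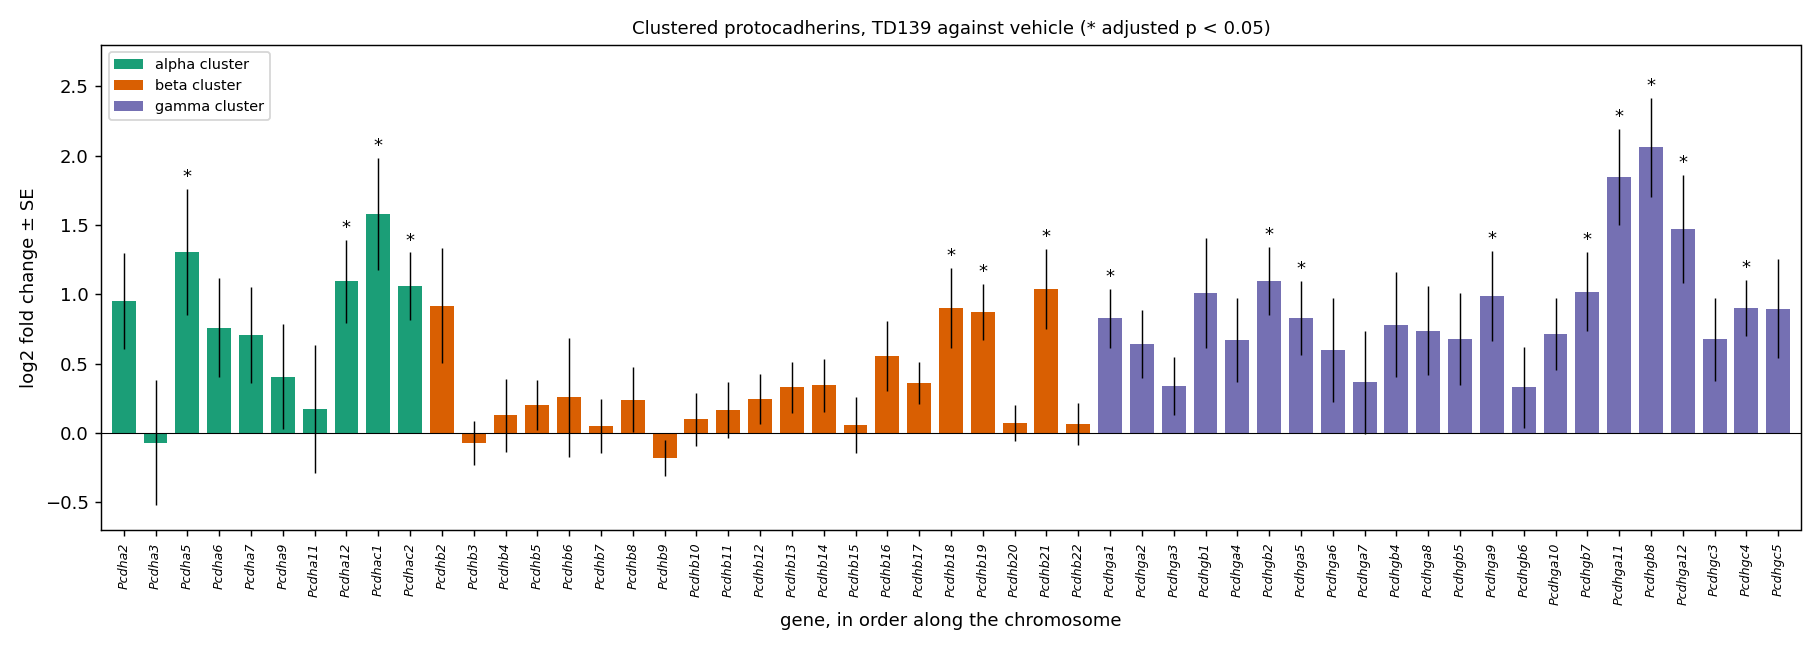
Log2 fold change of TD139 over vehicle with its SE (bars and lines) for the 53 measured alpha, beta and gamma genes with an annotated position, in their order along the chromosome; asterisks mark an adjusted p below 0.05. The alpha genes at the left and the gamma genes at the right rise to 1.58 and 2.06, and the beta genes between them have a median of 0.24. Pcdhb18, Pcdhb19 and Pcdhb21 stand higher, as do Pcdhb2 at 0.92 and Pcdhb16 at 0.56, which did not pass.

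**Figure D3:**
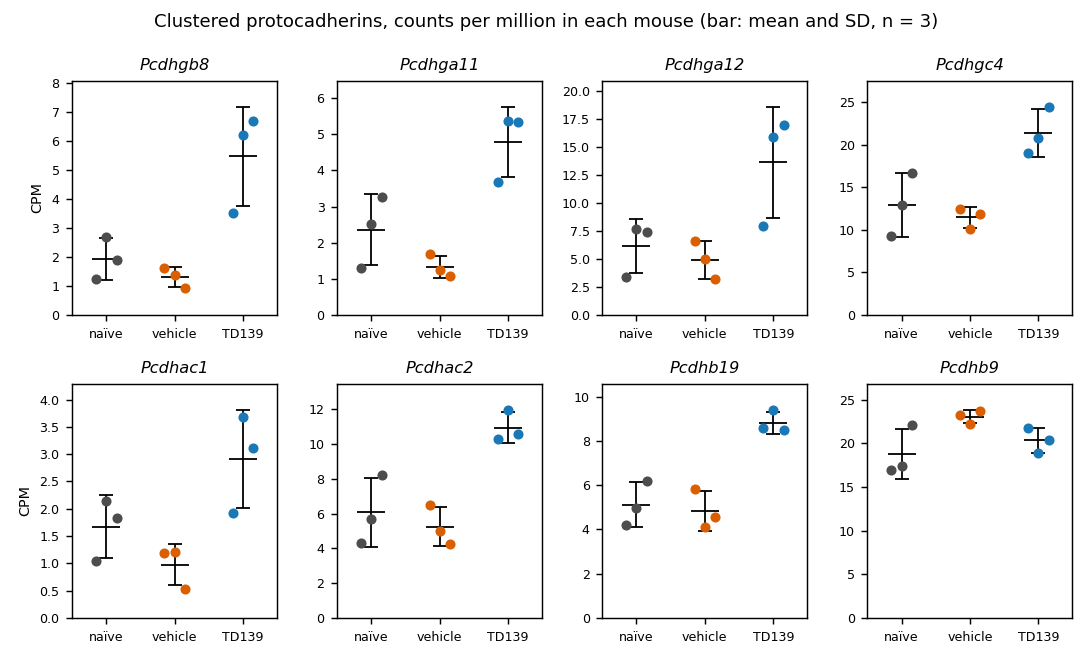
CPM of 8 clustered protocadherins in each mouse (points), with the mean and SD of 3 mice, in naïve, vehicle-treated and TD139-treated groups. The TD139-treated mice lie above all vehicle-treated mice in Pcdhgb8, Pcdhga11, Pcdhga12, Pcdhgc4, Pcdhac1, Pcdhac2 and Pcdhb19, and below them in Pcdhb9, where the difference did not pass the test.

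All 11 non-clustered protocadherins had every TD139-treated mouse above every vehicle-treated mouse, and 7 passed the test. Pcdh17, a protocadherin of synaptic contacts in forebrain circuits, was at 15.3, 12.9 and 10.3 CPM after vehicle and 18.6, 26.7 and 25.2 after TD139 (log2 0.87, SE 0.19, adjusted p = 0.0081). Pcdh7, also called BH-protocadherin, was at 25.1, 22.7 and 17.9 after vehicle and 35.6, 38.3 and 38.3 after TD139 (log2 0.77, SE 0.17, adjusted p = 0.010). Pcdh10, known from axon outgrowth and synapse removal, was at 45.9, 38.7 and 40.6 after vehicle and 55.4, 63.5 and 60.7 after TD139 (log2 0.52, SE 0.12, adjusted p = 0.0097). Pcdh9 (log2 0.59, adjusted p = 0.025), Pcdh11x (0.74, adjusted p = 0.047) and Pcdh19 (0.36, adjusted p = 0.048), the last a gene of female-limited epilepsy, were higher too. Once corrected for length and GC, as described further on, none of the 7 calls held. Pcdh17 and Pcdh7 were then both at 0.31, Pcdh9 at 0.16 and Pcdh10 at 0.02, and Pcdh11x and Pcdh19 turned to -0.0175 and -0.11 (adjusted p = 0.96 and 0.58). In the printed upstream sequences, 3 of these 4 genes carry a CCAAT or ATTGG and Pcdh7 does not.

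Pcdh15, the tip-link protocadherin, which photoreceptors also make, was the most counted member. Its values were 78.8, 151 and 208 CPM without light, 114, 109 and 102 after vehicle and 168, 250 and 213 after TD139. The vehicle-treated mice were close together and below every TD139-treated mouse, and the naïve mice spanned both. The log2 difference of TD139 over vehicle was 0.96 (SE 0.31, adjusted p = 0.044), and without vehicle mouse 2 the adjusted p was 0.090. With the length and GC correction it was 0.45 (adjusted p = 0.14). Its partner Cdh23 was far lower, at 0.18 CPM per kb, and went from 4.18, 3.50 and 4.23 CPM after vehicle to 3.48, 2.37 and 2.25 after TD139 (log2 -0.56, adjusted p = 0.17).

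The cadherins split. Cdh9, a type II cadherin of bipolar cell synapses, was at 3.36, 4.87 and 3.73 CPM after vehicle and 6.12, 8.91 and 8.10 after TD139, with naïve mice at 5.46, 5.84 and 5.50 (log2 0.95, SE 0.21, adjusted p = 0.0089). Cdh6, a marker of some direction-selective ganglion cells, was at 1.54, 0.283 and 0.907 after vehicle and 2.67, 2.85 and 3.32 after TD139. Its log2 difference was 1.69 (SE 0.58, adjusted p = 0.045), and 1.27 with an adjusted p of 0.094 without vehicle mouse 2. Cdh12 (log2 0.98, adjusted p = 0.032) and the type I Cdh4, or R-cadherin of the retina (0.42, adjusted p = 0.024), were higher as well, and without vehicle mouse 2 neither passed (0.85 and 0.34, adjusted p = 0.093 and 0.082).

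Cdh22, a type II cadherin of the brain, was the only member called lower. It was at 35.8, 31.2 and 45.9 CPM after vehicle, 29.0, 24.8 and 25.4 after TD139 and 32.6, 30.2 and 33.5 in naïve mice (log2 -0.51, SE 0.14, adjusted p = 0.019). Every TD139-treated mouse lay below every mouse of the other groups. The call was lost with the length and GC correction (-0.33, adjusted p = 0.084) and without vehicle mouse 3, TD139 mouse 2 or TD139 mouse 3. Cdh2 hardly differed, at 110, 97.8 and 102 CPM after vehicle and 112, 93.2 and 102 after TD139 (log2 -0.01, adjusted p = 0.96). Cdh24 and Cdh18 were also near 0, at log2 0.06 and -0.03.

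**Figure D4:**
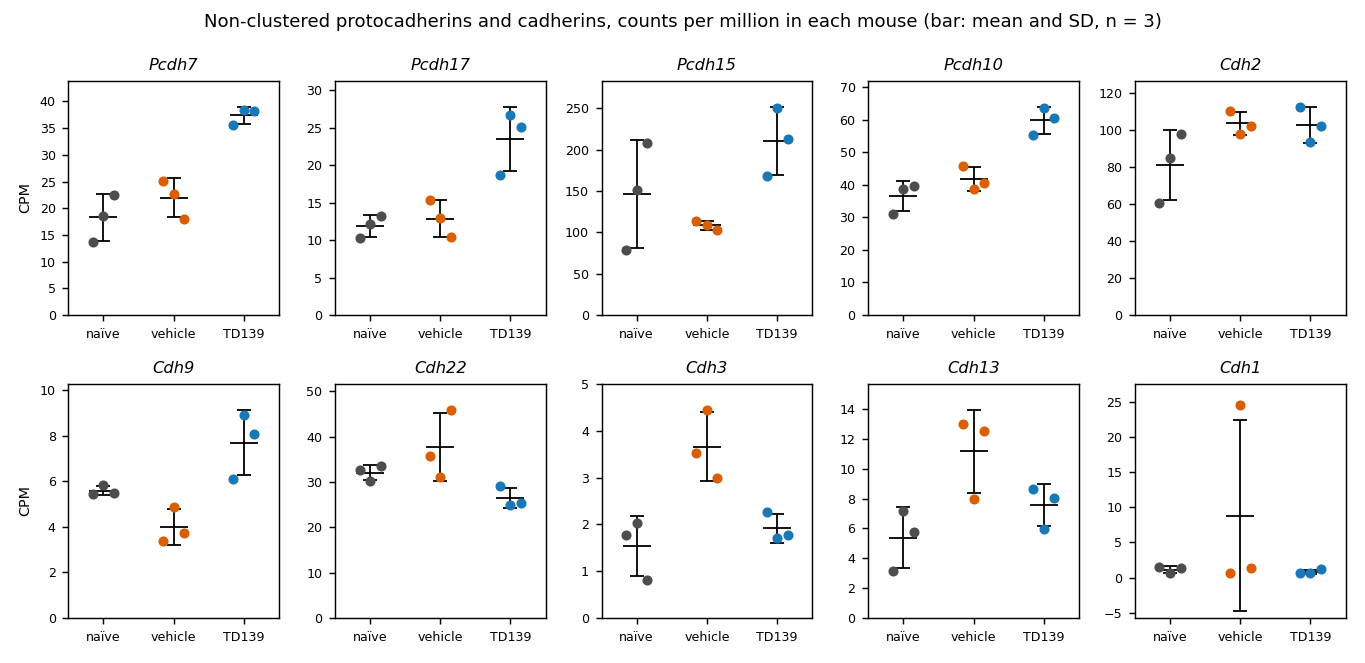
CPM of 4 non-clustered protocadherins and 6 cadherins in each mouse (points), with the mean and SD of 3 mice. The TD139-treated mice lie above the vehicle-treated mice in the protocadherins and Cdh9 and below them in Cdh22 and Cdh3, and the 24.5 CPM of Cdh1 in vehicle mouse 2 stands far from the other 8 values.

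The comparison of TD139-treated with naïve mice shares both groups with the comparisons above and is not independent of them. It called 8 members higher and 0 lower, 9.64% higher against 2.72% of all genes, with 2.38% of all genes lower. At an unadjusted p below 0.05, 36 members were higher and 0 lower, against 15.5% and 14.1% of all genes. DESeq2 called 23 higher and 0 lower, against 9.20% and 7.37%, and limma 45 higher and 0 lower, against 19.7% and 16.3%. The log2 difference was above 0 in 79 of 83 members, with a median of 0.53 (all genes 0.00), and in 43 members every TD139-treated mouse lay above every naïve mouse, against 15.3% of all genes. The 8 were Pcdh7 (log2 1.03, SE 0.18), Pcdh17 (0.98), Pcdh9 (0.75), Pcdh10 (0.71), Pcdh19 (0.64), Pcdh18 (0.59), Pcdhb19 (0.78) and Pcdhgb8 (1.49), with adjusted p between 0.041 and 0.050. Of these, 7 were also among the 28 called against vehicle, and Pcdh18 was not. The count fell to 0 without naïve mouse 1, naïve mouse 2, vehicle mouse 2, TD139 mouse 2 or TD139 mouse 3, and in each of these fits 0 of all genes tested were called. It was 29 without naïve mouse 3 (against 9.87% of all genes), 5 without vehicle mouse 1 (against 1.80%) and 15 without TD139 mouse 1 (against 6.74%). Without vehicle mouse 3, Pcdh9, Pcdh18 and Pcdhb19 were lost and 5 of the 8 were still called, in a fit whose share over all genes is not given here.

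Transcript length ran alongside these differences. Over all tested genes, the median log2 difference of TD139 over vehicle was -0.37 for transcripts under 2 kb, -0.08 for 2 to 4 kb, 0.17 for 4 to 6 kb and 0.43 for 6 kb or more. Of the 2164 genes of 6 kb or more, 49.9% were called higher. No member was shorter than 2 kb, and the median length was 4725.5 bases for the members against 3380 for all tested genes. The 14 members of 6 kb or more had a median of 0.66 with 11 called higher, and the 49 of 4 to 6 kb, which include every alpha gene with a length and every gamma gene, had a median of 0.68 with 15 called, where 25.2% of all genes of that class were called higher. The 19 members of 2 to 4 kb had a median of 0.10 with 1 called higher, where 8.92% of all genes of that class were. Over all genes, Spearman's rho between length and log2 difference was 0.49 across 15058 genes, which share libraries and are not replicates.

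A fit with a correction for transcript length and GC content in each mouse separated the groups of members. It left 15 members higher (18.1%, against 13.7% of all genes) and 1 lower, Cdh23 at -0.85 (against 8.52% of all genes), and the median of all genes moved to 0.06. A gene among the 15, Pcdha10, has no length or GC value and could not be corrected by them, which leaves 14 of 82 (17.1%). The gamma cluster kept a median of 0.77 with 9 of 22 called, and the 10 alpha genes with a length had a median of 0.63 with 3 called, all of them also called without the correction. Pcdhgb8 was at 2.05 (adjusted p = 0.0083) and Pcdhga11 at 1.81 (adjusted p = 0.0092). The non-clustered protocadherins dropped to a median of 0.19, and none of the 7 called before was called, with Pcdh17 at 0.31 (adjusted p = 0.12), Pcdh7 at 0.31 (adjusted p = 0.069) and Pcdh10 at 0.02 (adjusted p = 0.88). Pcdh8, at 26.7, 33.3 and 36.3 CPM after TD139 and 25.7 to 26.0 after vehicle, was called instead (0.40, adjusted p = 0.037). Of the 3 beta genes none remained, and of the 4 cadherins Cdh9 did (0.77, adjusted p = 0.021). In the comparison with naïve mice 0 of 15196 genes passed in either direction after this correction, with 24 members higher and 0 lower at an unadjusted p below 0.05, against 6.24% of all genes higher. Between vehicle-treated and naïve mice it called 2 members higher, Cdh3 and Cdh13, against 6.15% of all genes. The correction also removes any difference that follows length for another reason, and these cannot be told apart here.

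**Figure D5:**
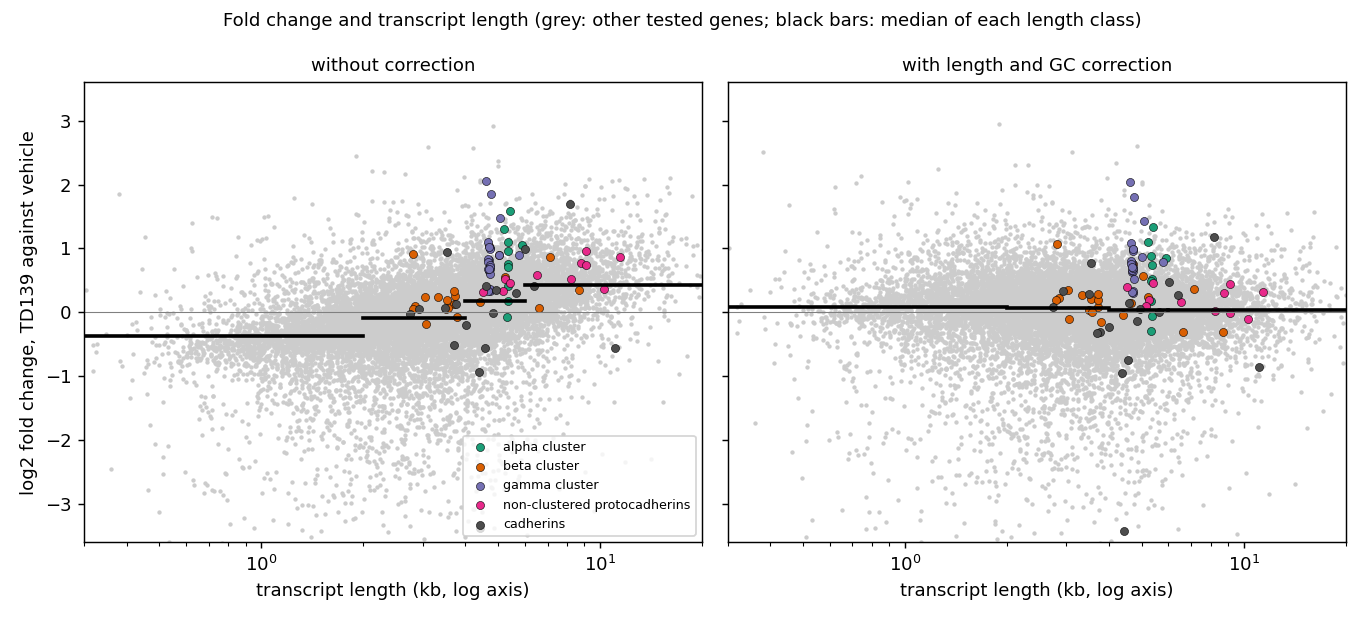
Log2 fold change of TD139 over vehicle against transcript length on a log axis, for all tested genes (grey) and the members (coloured by group), without and with the length and GC correction; black lines are medians of 4 length classes. Without it the class medians climb from -0.37 to 0.43 and 6 of the 7 non-clustered protocadherins of 6 kb or more lie above theirs, from 0.52 to 0.96, with Pcdh19 below at 0.36. With it the class medians are all close to 0 while the gamma genes and the 10 alpha genes with a length have medians of 0.77 and 0.63, with Pcdha3 and Pcdha11 below 0.

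Genes that work with this family were examined as lists. The locus regulators, which include CTCF and the cohesin subunits that loop enhancers to protocadherin promoters, had 13 of 15 measured genes higher after TD139 than after vehicle and 0 lower, against 17.2% and 16.2% of all genes, with a median log2 difference of 0.51. The same background applies to the other lists in this comparison. Smchd1, a silencer of clustered protocadherins, was at 44.2 ± 5.5 CPM after vehicle and 81.9 ± 17.0 after TD139 (SD, n = 3; log2 0.89, adjusted p = 0.0058), Zfp143 at 20.4 ± 1.0 and 30.3 ± 2.9 (0.57, adjusted p = 0.0060), and Mau2, a cohesin loader, at 118 ± 6.6 and 174 ± 24 (0.56, adjusted p = 0.0061). With the length and GC correction 5 were higher (Ctcf, Mau2, Nipbl, Smchd1 and Zfp143), against 13.7% of all genes. This share, and 8.52% lower, apply to the other lists when corrected. After light and vehicle, Zfp143 was the 1 gene of the list that was lower (-0.68, adjusted p = 0.013), against 2.89% of all genes. In that comparison 4.91% of all genes were higher, which applies to the other lists too. With the correction 6 of 15 were lower in that comparison, against 11.3% of all genes, namely Zfp143 (-0.73), Smchd1 (-0.49), Mau2 (-0.37), Setdb1 (-0.37), Ctcf (-0.35) and Nipbl (-0.30), with adjusted p from 0.0081 to 0.050.

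Among 10 catenins and junction linkers, 0 were higher and 2 lower after TD139 than after vehicle, Jup, or plakoglobin (-0.40, adjusted p = 0.011), and Arvcf, a p120-type catenin (-0.41, adjusted p = 0.015). With the length and GC correction Arvcf remained (-0.35, adjusted p = 0.034) and Jup did not (-0.14, adjusted p = 0.22). Both had been higher after light and vehicle than in naïve mice (0.48 and 0.45, adjusted p = 0.021 and 0.030), as was Ctnnal1 (0.58, adjusted p = 0.029). Of 13 measured members of the wider cadherin superfamily, 5 were higher and 0 lower after TD139 than after vehicle. They were Fat3, an atypical cadherin of amacrine cells (0.90, adjusted p = 0.0059), Cdhr1, the photoreceptor cadherin once named Pcdh21 (0.63, adjusted p = 0.014), Celsr3, Fat4 and Clstn3. With the correction 2 were called, Cdhr1 (0.60) and Clstn3 (0.42), while Fat3 was at 0.25 (adjusted p = 0.17), Celsr3 at 0.30 (adjusted p = 0.14) and Fat4 at -0.06 (adjusted p = 0.76). Celsr2 was the 1 gene of this list that was higher after light and vehicle (0.54, adjusted p = 0.049), where 4.91% of all genes were. With the correction it remained, and Cdhr1 (-0.61, adjusted p = 0.025) and Celsr3 (-0.50, adjusted p = 0.035) were lower in that comparison. Over all genes, 6.15% were then higher there and 11.3% lower.

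Of 14 signalling partners of protocadherins, 3 were higher (Abi1, Taok2 and Wasf3) and 2 lower (Brk1 and Cyfip1) after TD139 than after vehicle, shares near those of all genes, and Abi1, Wasf3, Brk1 and Cyfip1 are subunits of the WAVE complex of actin assembly. With the length and GC correction Taok2 was higher (0.37, adjusted p = 0.017) and Cyfip1 lower (-0.80, adjusted p = 0.0072), and Abi1, Wasf3 and Brk1 did not pass (adjusted p = 0.077, 0.062 and 0.50). Among the tip-link partners reported here, Whrn was higher after TD139 than after vehicle (log2 0.52, adjusted p = 0.011) and Cib2 and Ush1c were lower. With the correction Whrn remained (0.66, adjusted p = 0.011), and Cib2 (-0.02, adjusted p = 0.91) and Ush1c (-0.57, adjusted p = 0.14) did not, while Myo7a was then lower after TD139 than after vehicle (-1.24, adjusted p = 0.045, and -1.06, adjusted p = 0.060 without it). Whrn was lower after light and vehicle than in naïve mice (-0.51, adjusted p = 0.034) and Myo7a, a myosin also found in the pigment epithelium, was higher (2.36, adjusted p = 0.018). Of 8 sheddases, the proteases that cut cadherins from the membrane, 0 were higher and Mmp14, Psenen and Psen2 were lower after TD139. With the correction only Mmp14 of these passed (-0.83, adjusted p = 0.020), and Psenen was at -0.04 (adjusted p = 0.84) and Psen2 at 0.06 (adjusted p = 0.67). Mmp14 was at 17.4 ± 3.7 CPM in naïve mice, 34.3 ± 9.8 after vehicle and 16.9 ± 2.8 after TD139 (-1.02, adjusted p = 0.0083, and 0.98 for vehicle over naïve, adjusted p = 0.028).

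The 10 members below 20 counts were Pcdha1, Pcdha4, Pcdha4-g, Pcdha8, Pcdhb1, Pcdh12, Cdh15, Cdh17, Cdh19 and Cdh26, and they were not compared. Pcdha4-g had no reads in any mouse and Pcdha4 had 1 read in each of 2 mice, and since their models overlap a read there could belong to either. Just below the limit lay Cdh17 at a mean of 17.2 counts and Cdh15 at 16.6, and just above it lay Pcdha3 at 23.9 and Pcdha11 at 24.2.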

How the data were processed

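Polyadenylated RNA of whole retina was sequenced with a stranded Illumina kit. The deposited values are raw read counts per gene symbol, which the authors made per run; per the labels the genome build was mm10, quantification was in Illumina BaseSpace RNA Express, and the aligner and strand setting are not given in the sources used here. Counts of both runs were added for each mouse, giving 3 replicates per group. Rows that name no gene, 16.5 to 22.8% of reads outside genes and 0.303 to 0.471% ambiguous, were left out.

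Genes passing filterByExpr (15196) were fitted in edgeR 4.0.16 (TMM scaling, robust quasi-likelihood test, all 3 groups in 1 model), with Benjamini-Hochberg adjustment over all of them and a threshold of 0.05. SE is the log2 fold change divided by the root of F. CPM are TMM-scaled. DESeq2 1.42.0, limma 3.58.1 (voom with quality weights), other scalings and filters, single runs, a replicate block, a spline offset for transcript length and GC, and leaving out each mouse were alternatives. Scripts were tested on simulated data. Lengths and exons came from GENCODE M21 (98.31% of symbols joined) and promoters from RefSeq. p-values measure the spread between mice, which for members with few counts includes counting error. Same-numbered mice deviated together in no regular way (correlations from -0.257 to 0.266), so numbers do not pair them.

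Members and lists were chosen with earlier results of these data known. Named members were all called ones, or the 6 highest and 6 lowest fold changes where more than 12 were called, the 3 highest levels per group, tip-link genes, and the 3 lowest adjusted p per partner list; other genes were named after their values were seen. A gene of the tip-link partner list, and the count over that list, are not reported here.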

Additional observations from a re-analysis of the deposited data

Results flagged for a closer look

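The share of reads outside annotated genes averaged 22.2% in TD139-treated mice, and each of the 3 lay above every naïve mouse (at most 19.9%). These reads entered no comparison.

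Members with too few counts for the comparisons also held reads above every naïve mouse in 3 cases. Over all tested genes, every vehicle-treated mouse lay above every naïve mouse in 16.7%, and every TD139-treated mouse in 15.3%. Pcdhb1 averaged 9.33 counts in TD139-treated mice (7, 13 and 8) against 2, 5 and 5 in naïve mice. Cdh17, a cadherin of the intestine, averaged 24 counts in vehicle-treated mice (22, 22 and 28) against 13, 20 and 15. Cdh15, or M-cadherin of muscle, averaged 26 counts in vehicle-treated mice (24, 27 and 27) against 20, 19 and 11, and was at 6, 4 and 11 in TD139-treated mice. Vehicle mouse 2, which had 27 of these counts, carried muscle transcripts, and their part in the Cdh15 counts was not tested. None of these differences was tested.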

How the results depend on the processing

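For TD139 against vehicle, 28 members were higher; limma gave 43 (23.4% of all genes were higher), the length and GC correction 15 (13.7%), the replicate block with length and GC correction 12 (12.2%), and leaving out 1 mouse 9 to 37 (5.61 to 19.4%). The 1 lower member became 2 with DESeq2, library size alone, only the groups compared or the replicate block, 3 with limma, 0 with the block and correction together, and 0 to 2 with 1 mouse left out. In the main fit 16.2% of all genes were lower, and the shares in these other fits are not given here. For TD139 against naïve, 8 were higher (2.72% of all genes). DESeq2 gave 23 (9.20%), limma 45 (19.7%) and run 1 alone 5, a fit whose share is not given here. A fit of only the groups compared, the replicate block, the correction and both together each gave 0. These fits called at most 1 of all genes tested. Leaving out 1 mouse gave 0 to 29. For vehicle against naïve, 1 was higher (4.91% of all genes). Limma gave 4, and DESeq2, RLE, library size alone and the correction each gave 2. No filter, the mean count filter, only the groups compared and run 1 alone gave 0, and leaving out 1 mouse gave 0 to 2. Limma also called 2 lower in this comparison, against 0 in the main fit. The correction called 6.15% of all genes higher, and DESeq2 and limma called 15.9% and 21.9% in either direction. The shares with RLE and library size alone are not given here.

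Pcdh11x and Pcdh19 turned direction against vehicle under the correction (-0.0175 and -0.11) and with the block added (-0.0048 and -0.11), without passing. The paired fit used replicate numbers that do not pair the mice; it called 21 members higher against vehicle, and 2436 of 15196 genes. With 3 mice per group, calls near the threshold depend on single mice; the cause was not tested.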

Other observations

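Within a mouse, each group's median deviation from its members' mean log2 CPM over all mice described the retina as a whole. The gamma cluster was at -0.85, -0.10 and 0.26 in the naïve mice, -0.22, -0.25 and -0.52 in the vehicle-treated mice and 0.38, 0.47 and 0.59 in the TD139-treated mice. The alpha cluster followed the same order of mice within the naïve group, at -0.67, -0.11 and 0.24, and the non-clustered protocadherins lay at -0.55, -0.27 and -0.12 there. The cadherins spanned less, from -0.25 to 0.21 over the 9 mice, and the median over all tested genes stayed between -0.02 and 0.01. The naïve mice thus differed among themselves by more than the vehicle-treated mice did in the gamma and alpha clusters.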
